A study of Mus musculus with 32 samples.

Results

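Genes that mark cancer-associated fibroblasts and myofibroblasts were examined in tumors and lungs of *Clic4* knockout (KO) and wildtype (WT) mice. The 10 genes *Acta2*, *Tagln*, *Pdgfra*, *Pdgfrb*, *Fap*, *Postn*, *Tnc*, *S100a4*, *Thy1* and *Spp1* were chosen by symbol, out of 29511 genes in the deposited count table, and no measured value enters that rule. The hosts were virgin female FVB/N littermates, young adults that were either WT or carried a germline *Clic4* knockout. 6DT1 cells, a mouse mammary cancer line from an MMTV-Myc tumor, were placed in the fourth mammary fat pad, and these cells carry *Clic4* in both host genotypes. RNA came from 12 primary tumors 14 days after implantation, 6 for each host genotype, from 12 lungs collected at that time, again 6 for each genotype, and from 8 control lungs without a tumor, 4 for each genotype. The study describes the 14-day lungs as premetastatic, and its aim in sequencing them was to see how host *Clic4* shapes the tissue before metastases form.

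Fibroblasts are the cells that make and remodel connective tissue, and in tumors they can take on a myofibroblast state with actin stress fibers, a matrix-producing state or an inflammatory state. Signals such as PDGF and TGF-beta drive the first of these changes, and contraction then rests on smooth muscle actin and its partners. None of the 10 genes belongs to fibroblasts alone. Smooth muscle and pericytes express *Acta2*, *Tagln* and *Pdgfrb*, mouse T cells express *Thy1*, macrophages express *Spp1*, and cancer cells can express *S100a4*, *Tnc* and *Spp1*. In RNA from whole tissue, fewer cells of a type and less RNA per cell cannot be told apart.

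Each library held 4446323 to 8318711 counts assigned to genes. Levels are given as CPM, counts scaled to a common library size with TMM, a factor that evens out library composition, and, where genes are compared with each other, as FPKM, which is also divided by transcript length. The deletion was visible in lungs, where *Clic4* was at 221 to 279 CPM in the 6 KO lungs at 14 days and at 586 to 865 CPM in the 6 WT lungs. In tumors, whose cancer cells carry the gene, *Clic4* was at 247 to 279 CPM in KO hosts and 295 to 325 CPM in WT hosts, and the ranges did not overlap. The surfactant gene *Sftpc* had a median of 0 CPM in both tumor groups and 4770 to 5375 CPM in the lung groups. *Krt8*, a keratin of glandular epithelium, was higher in tumors (medians 343 and 319 CPM in WT and KO hosts) than in lungs (75.6 to 95.5 CPM), whereas *Epcam*, another epithelial marker, was lower in tumors (6.13 and 11.7 CPM) than in lungs (33.0 to 34.8 CPM).

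The 10 genes are protein coding, and their positions on GRCm38 follow GENCODE M21. *Acta2* lies on chromosome 19 (34241090 to 34255590, minus strand), *Tagln* on chromosome 9 (45929619 to 45936058, minus strand), *Thy1* on chromosome 9 (44043384 to 44048579, plus strand) and *Fap* on chromosome 2 (62500943 to 62574075, minus strand). *Pdgfra* (75152292 to 75198215) and *Spp1* (104435118 to 104441050) are on the plus strand of chromosome 5, and *Postn* (54361109 to 54391037) and *S100a4* (90603771 to 90606045) on the plus strand of chromosome 3. *Tnc* is on the minus strand of chromosome 4 (63959785 to 64047015). *Tagln* overlaps *Pcsk7* and the annotated antisense gene *Gm48529* on the opposite strand, *Pdgfra* and *Tnc* also overlap genes on the opposite strand, and *S100a4* and *Spp1* overlap predicted genes on their own strand. The libraries kept strand, but whether counting used it is not given in the sources used here, so reads of *Tagln*, *Pdgfra* and *Tnc* may include some from the other strand. For *S100a4* and *Spp1*, reads in the shared stretch carry the same strand and could be split between the overlapping genes.

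RefSeq promoters were on hand for 6 of the 10 genes. Of these, 4 hold TATAAA, the core of a TATA box, in the 250 bases before an annotated start. These 4 (*S100a4*, *Postn*, *Tnc* and *Spp1*) are also genes that were higher in tumors than in lungs below. *Fap* and *Thy1*, higher in tumors too, had no promoter on hand, and a link between TATAAA and tissue was not tested. Some genes have more than 1 annotated start, and 5 of the 9 windows of these 6 genes held TATAAA, where both *Tnc* windows share 1 match and the other windows of *Postn* and *Spp1* had none. Of 32851 mouse windows of the same length 12.4% hold it on either strand, and of the 27025 genes they belong to 14.3% do in at least 1 window. The 4 stretches are shown for that reason, 5′ to 3′ on each gene's own strand, from RefSeq on GRCm38.p6, with TATAAA in capitals. *S100a4* is chr3:90603520-90603769 (plus), *Postn* chr3:54360857-54361106 (plus), *Tnc* chr4:64047016-64047265 (minus) and *Spp1* chr5:104434861-104435110 (plus).
S100a4: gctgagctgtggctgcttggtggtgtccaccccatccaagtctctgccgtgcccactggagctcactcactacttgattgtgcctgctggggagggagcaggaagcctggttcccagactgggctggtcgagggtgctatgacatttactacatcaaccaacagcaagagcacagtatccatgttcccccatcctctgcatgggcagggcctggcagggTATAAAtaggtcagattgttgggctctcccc
Postn: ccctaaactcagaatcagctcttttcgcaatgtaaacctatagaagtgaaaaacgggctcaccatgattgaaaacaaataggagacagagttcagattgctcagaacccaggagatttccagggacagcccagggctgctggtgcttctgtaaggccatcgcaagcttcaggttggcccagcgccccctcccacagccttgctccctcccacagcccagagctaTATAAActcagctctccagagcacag
Tnc: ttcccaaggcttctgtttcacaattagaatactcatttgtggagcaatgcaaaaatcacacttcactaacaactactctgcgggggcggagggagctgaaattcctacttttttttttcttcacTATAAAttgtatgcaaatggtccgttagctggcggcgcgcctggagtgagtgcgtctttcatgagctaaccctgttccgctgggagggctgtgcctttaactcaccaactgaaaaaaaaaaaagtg
Spp1: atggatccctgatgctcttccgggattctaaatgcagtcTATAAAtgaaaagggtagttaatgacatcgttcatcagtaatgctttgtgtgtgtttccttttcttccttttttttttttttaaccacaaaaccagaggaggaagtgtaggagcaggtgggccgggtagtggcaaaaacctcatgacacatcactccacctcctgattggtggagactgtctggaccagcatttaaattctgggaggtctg
The match began 31 bases before the start in *S100a4*, 26 in *Postn*, 126 in *Tnc* and 211 in *Spp1*. *Acta2* and *Pdgfra* had no TATAAA in their windows. The CArG box, the site bound by serum response factor, searched by its exact consensus, was in 1.47% of all windows and the AP-1 motif TGANTCA in 6.75%, on both strands, and 0 of the 6 genes had either exact form in its window. With at most 1 base off the consensus, *Acta2* held CArG boxes beginning 84 and 34 bases before its start and *Tnc* held 1 beginning 31 bases before its second start, so 2 of the 9 windows held one, beside 18.6% of all windows. A CArG box can itself contain TATAAA, so these shares are not exclusive. A match is a stretch of letters and was not tested for binding.

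Ordered by FPKM, the lungs and the tumors had different leading genes. *S100a4*, a small calcium-binding protein that acts on myosin and cell motility, led in tumors at 646 ± 128 FPKM in WT hosts and 512 ± 112 in KO hosts (SD, n = 6 each), and its range lay above that of every other gene of the 10. *Spp1*, which encodes osteopontin, a secreted ligand of integrins and CD44, followed at 251 ± 56.2 and 213 ± 61.0 FPKM. *Postn*, which encodes periostin, a matrix protein that binds collagen and integrins, came next in tumors at 222 ± 81.6 and 157 ± 28.3 FPKM, and its range overlapped that of *Spp1* in both genotypes. *Fap*, a serine protease on the surface of activated fibroblasts, was the lowest in every group, at 4.94 ± 1.80 and 4.75 ± 1.11 FPKM in the WT and KO tumors.

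In lungs, *Postn* led in all 4 groups, from 121 ± 5.47 FPKM in WT controls (n = 4) to 136 ± 6.44 in KO controls (n = 4), and its range lay above that of the next gene, *Pdgfra*, in each of them. *Pdgfra*, the receptor for PDGF-A and a marker of resident lung fibroblasts, stood at 90.9 ± 7.36 to 109 ± 5.59 FPKM. Behind it came *Spp1*, *Acta2* and *Tagln*, whose ranges overlapped from one gene to the next in every lung group. *Tnc*, *Thy1* and *Fap* were lowest in that order, with group means of 4.56 to 6.89, 3.02 to 3.35 and 0.698 to 1.30 FPKM. *S100a4*, the leader in tumors, stood sixth or seventh in lungs at 30.1 to 42.6 FPKM, beside *Pdgfrb*.

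**Figure D1:**
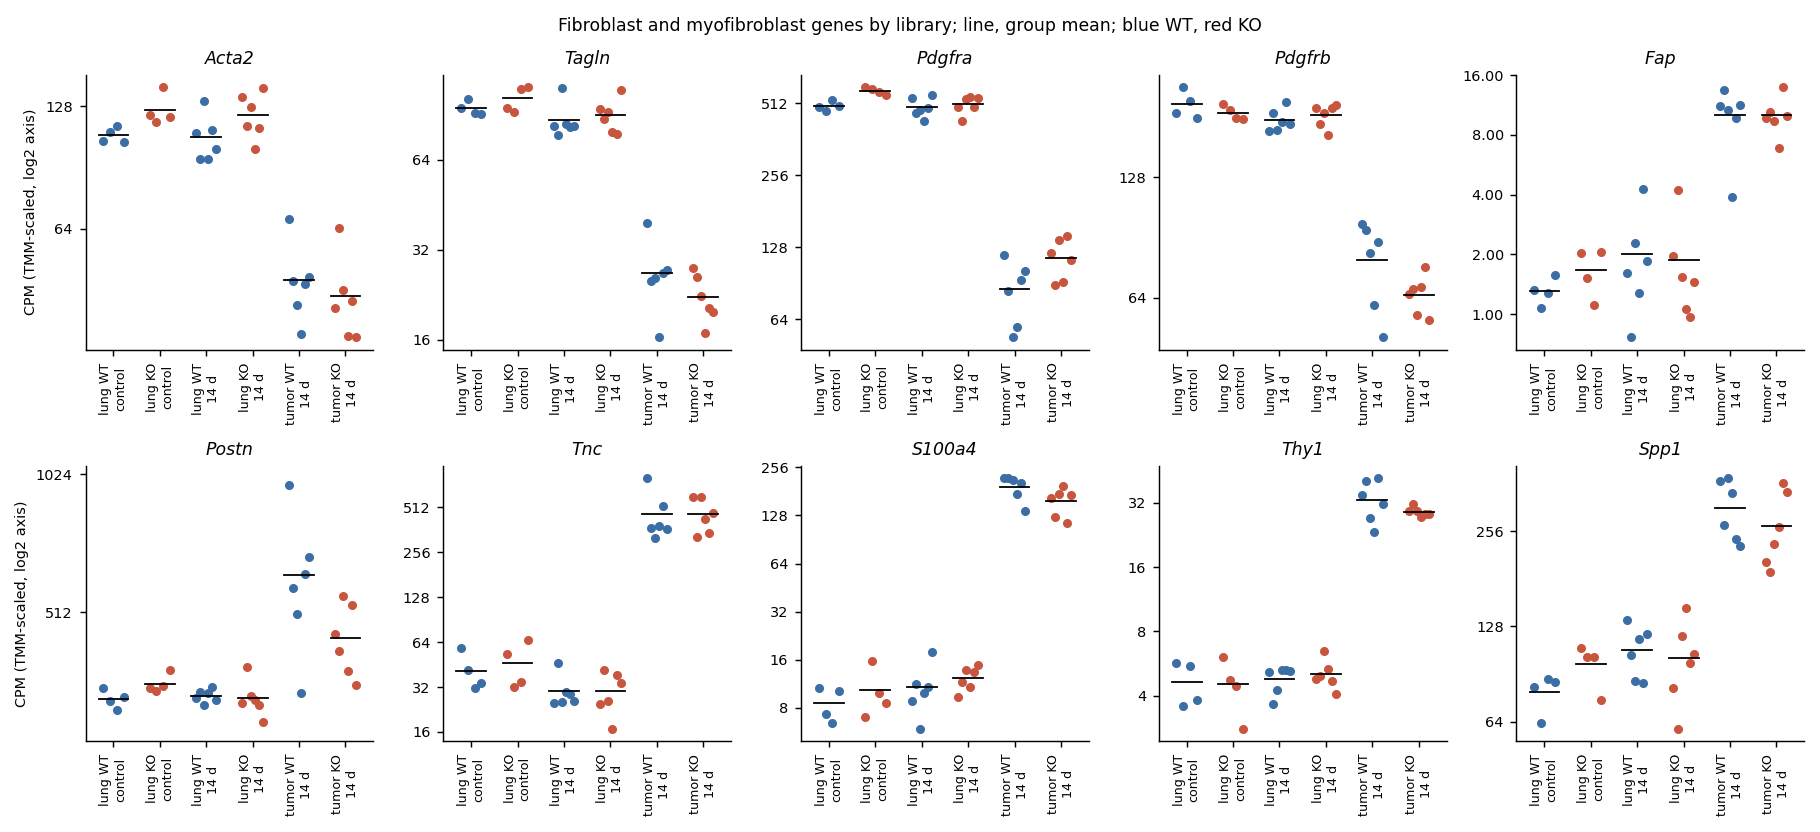
Each panel plots the CPM of 1 gene (log2 axis) in every library of the 6 groups, with a line at the group mean, WT in blue and KO in red. *Acta2*, *Tagln*, *Pdgfra* and *Pdgfrb* sit lower in tumors than in lungs, and *Tnc*, *S100a4*, *Thy1* and *Spp1* sit higher, while for *Postn* and *Fap* some tumors lie within the lung values.

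Tumor and lung were compared within each host genotype at 14 days, to see in which tissue each gene is high. All 10 genes differed between tumor and lung in both genotypes (edgeR quasi-likelihood test, Benjamini-Hochberg FDR of 0.05). This is a comparison of unlike tissues, and 75.5% of the 16115 genes tested were called in WT hosts (37.1% higher and 38.4% lower in tumors) and 74.2% in KO hosts (37.0% higher and 37.2% lower). *Fap*, *Postn*, *Tnc*, *S100a4*, *Thy1* and *Spp1* were higher in tumors, and *Acta2*, *Tagln*, *Pdgfra* and *Pdgfrb* were lower. The groups did not overlap for 8 of the 10 genes in WT hosts, beside 55.9% of all genes (27.5% higher and 28.4% lower in tumors), and for 9 in KO hosts, beside 54.4% (26.6% and 27.9%).

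The receptors were lower in tumors. *Pdgfra* ran from 53.7 through a median of 88.8 to 119 CPM in WT tumors and from 431 through 486 to 553 CPM in WT lungs, a log2 change of -2.55 ± 0.15 (SE, FDR = 3.4e-14). In KO hosts the tumors ran from 89.4 through 117 to 143 CPM and the lungs from 434 through 515 to 544, a log2 change of -2.14 ± 0.15 (FDR = 8.63e-13). Every lung stood above every tumor. *Pdgfrb*, the PDGF-B receptor of pericytes and fibroblasts, was lower by less, with log2 changes of -1.18 ± 0.11 in WT hosts (FDR = 4.72e-10) and -1.496 ± 0.11 in KO hosts (FDR = 6.35e-12). Its highest tumor held 98.1 CPM and its lowest lung of any group 163 CPM.

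The contractile genes were lower in tumors too. *Acta2*, smooth muscle alpha-actin and the defining myofibroblast protein, ran from 35.3 through 47.3 to 67.6 CPM in WT tumors and from 94.7 through 105 to 132 CPM in WT lungs, with a log2 change of -1.17 ± 0.14 (FDR = 2.72e-08). In KO hosts it was -1.496 ± 0.14 (FDR = 4.15e-10). *Tagln*, the actin-binding protein transgelin, changed by -1.71 ± 0.14 in WT and -2.04 ± 0.14 in KO hosts (FDR = 3.22e-11 and 1.51e-12). The highest tumor held 39.2 CPM of *Tagln* and the lowest lung 77.3 CPM. Lung is rich in airway and vessel muscle, and among 14 other contractile genes 10 were lower and 4 higher in tumors in both genotypes. Of 9 pericyte genes 7 were lower and 1 higher, and all 8 endothelial markers tested were lower, with summed CPM of 108 to 202 in tumors and 2909 to 3124 in 14-day lungs. The part of muscle and vessels in the *Acta2*, *Tagln* and *Pdgfrb* differences was not tested.

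The secreted and matrix genes were higher in tumors. *Tnc*, the hexameric glycoprotein tenascin-C, ran from 318 through 377 to 802 CPM in WT tumors and from 25.1 through 27.3 to 46.7 CPM in WT lungs, 15.1 times as much by the fitted change (log2 3.92 ± 0.25, FDR = 1.66e-13), and the fitted change in KO hosts was also 3.92 ± 0.25 (FDR = 1.79e-13). Every tumor stood far above every lung. *Spp1* was higher by 1.48 ± 0.19 in WT hosts (FDR = 9.71e-08) and 1.37 ± 0.19 in KO hosts (FDR = 3.47e-07), from 190 to 376 CPM in the 12 tumors and 60.9 to 146 CPM in the 20 lungs. *Postn* had the smallest difference, 0.86 ± 0.15 in WT hosts (FDR = 1.52e-05) and 0.43 ± 0.15 in KO hosts (FDR = 0.0129). Its highest KO lung, at 388 CPM, lay above 2 of the 6 KO tumors, and WT tumor 4, at 341 CPM, lay inside the WT lung range of 321 to 351 CPM. The collagens and other fibroblast identity genes were mixed, with 9 of 18 higher and 6 lower in WT hosts and 12 higher and 6 lower in KO hosts.

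*S100a4* had the largest change of the 10 in WT hosts. It ran from 136 through 209 to 219 CPM in WT tumors and from 5.91 through 10.3 to 17.9 CPM in WT lungs, 17.9 times as much (log2 4.16 ± 0.19, FDR = 1.23e-16), and in KO hosts from 114 through 169 to 195 against 9.39 through 12.5 to 14.7 CPM (3.66 ± 0.18, FDR = 1.38e-15). *Thy1*, the GPI-anchored surface protein CD90, was higher by 2.77 ± 0.14 and 2.51 ± 0.14 in WT and KO hosts (FDR = 7.9e-16 and 7.61e-15). T cell markers summed to 13.6 to 64.4 CPM in tumors and 46.6 to 88.7 CPM in 14-day lungs, ranges that overlap, with 7 of 8 called lower in WT tumors and 2 of 8 in KO tumors, and their part in the *Thy1* difference was not tested. *Fap* was higher by 2.28 ± 0.33 and 2.42 ± 0.33 (FDR = 6.44e-07 and 3.95e-07), but it rested on 4 to 25 counts in a lung library. WT tumor 4 held 3.89 CPM of *Fap*, below the 4.25 CPM of WT lung 5. Macrophage markers were mostly higher in tumors, 10 of 12 in each genotype, although their summed CPM was lower in WT tumors (1122 to 2128) than in most WT lungs (2112 to 2512), and their part in the *Spp1* difference was not tested.

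**Figure D2:**
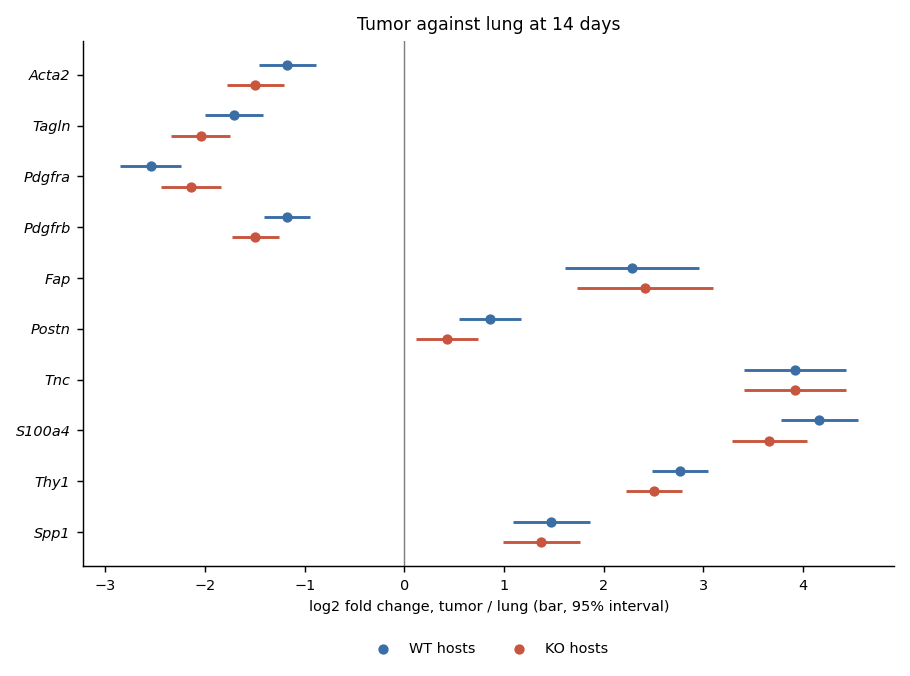
Points are log2 fold changes of tumor over lung at 14 days in WT (blue) and KO (red) hosts, and bars are 95% intervals from the fit. *S100a4* (4.16 and 3.66) and *Tnc* (3.92 in both) lie farthest to the right, *Pdgfra* (-2.55 and -2.14) farthest to the left, and no bar reaches 0.

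The tumor-to-lung difference was then compared between genotypes. None of the 10 genes was called for this interaction (edgeR, beside 0.707% of 16115 genes; 0 at an unadjusted p under 0.05, beside 10.9%, and 0 by DESeq2, beside 1.25%). The largest values were -0.50 for *S100a4* (95% interval -1.03 to 0.027, FDR = 0.491), -0.43 for *Postn* (-0.86 to 0.012, FDR = 0.476; -0.25 without WT tumor 1) and 0.41 for *Pdgfra* (-0.0066 to 0.82, FDR = 0.467).

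Tumors from KO and WT hosts were compared to ask whether a host without *Clic4* builds a different tumor stroma. Of the 10 genes, *Pdgfra* had the highest KO-to-WT ratio and *Postn* the lowest, and 7 of the 10 had lower fitted levels in tumors from KO hosts. None was called by edgeR (FDR of 0.05), where 2.51% of 13830 genes were, or by DESeq2, where 3.97% were, and 0 of the 10 had groups that did not overlap, beside 1.95% of all genes. At an unadjusted p under 0.05 there were 3, and 15.5% of all genes. The median log2 change of the 10 was -0.19, and that of all genes tested -0.0098.

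*Pdgfra* ran from 53.7 through 88.8 to 119 CPM in WT tumors and from 89.4 through 117 to 143 CPM in KO tumors. Of the KO tumors 3 stood above every WT tumor, and WT tumors 2, 3 and 4 stood below every KO tumor. The log2 change was 0.45 (95% interval 0.065 to 0.83, FDR = 0.246), and it was 0.34 to 0.57 when 1 tumor at a time was left out. *Pdgfrb* did not follow it: WT tumors ran from 51.0 through 85.7 to 98.1 CPM and KO tumors from 56.5 through 66.4 to 76.5 CPM, a log2 change of -0.28 (-0.58 to 0.021, FDR = 0.364).

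*Postn* ran from 341 through 600 to 971 CPM in WT tumors and from 355 through 440 to 556 CPM in KO tumors. Of the WT tumors 4 stood above every KO tumor, but WT tumor 4 was the lowest of all 12. The log2 change was -0.45 (-0.85 to -0.038, FDR = 0.28). Without WT tumor 1, the highest, it was -0.27, and that library moved the value by over 1.5 times. *Tnc*, the other large matrix glycoprotein, had a log2 change of 0.0093 (-0.45 to 0.47), with WT tumors at 318 through 377 to 802 CPM and KO tumors at 326 through 450 to 604 CPM. Without WT tumor 1, at 802 CPM, its value was 0.24. *Spp1* had a change of -0.18 (-0.54 to 0.17, FDR = 0.654), which was -0.29 without KO tumor 5 and -0.11 without KO tumor 2.

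*Acta2* ran from 35.3 through 47.3 to 67.6 CPM in WT tumors and from 34.6 through 41.7 to 64.3 CPM in KO tumors, with 1 high tumor in each group. The log2 change was -0.14 (-0.49 to 0.22, FDR = 0.754), and it was -0.28 without KO tumor 2 and -0.011 without WT tumor 1. *Tagln* had a change of -0.27 (-0.64 to 0.092, FDR = 0.484), which was -0.13 without WT tumor 1. *S100a4* ran from 136 through 209 to 219 CPM in WT tumors and from 114 through 169 to 195 CPM in KO tumors, where 2 KO tumors stood below every WT tumor, with a change of -0.29 (-0.58 to -0.0070, FDR = 0.312). *Thy1* had a change of -0.19 (-0.46 to 0.075, FDR = 0.505), which was -0.11 without WT tumor 5. Its KO tumors were close together, from 27.6 to 31.6 CPM, inside the WT range of 23.4 to 41.7 CPM. *Fap* had a change of 0.0086 (-0.48 to 0.50, FDR = 0.992) and a wide interval.

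**Figure D3:**
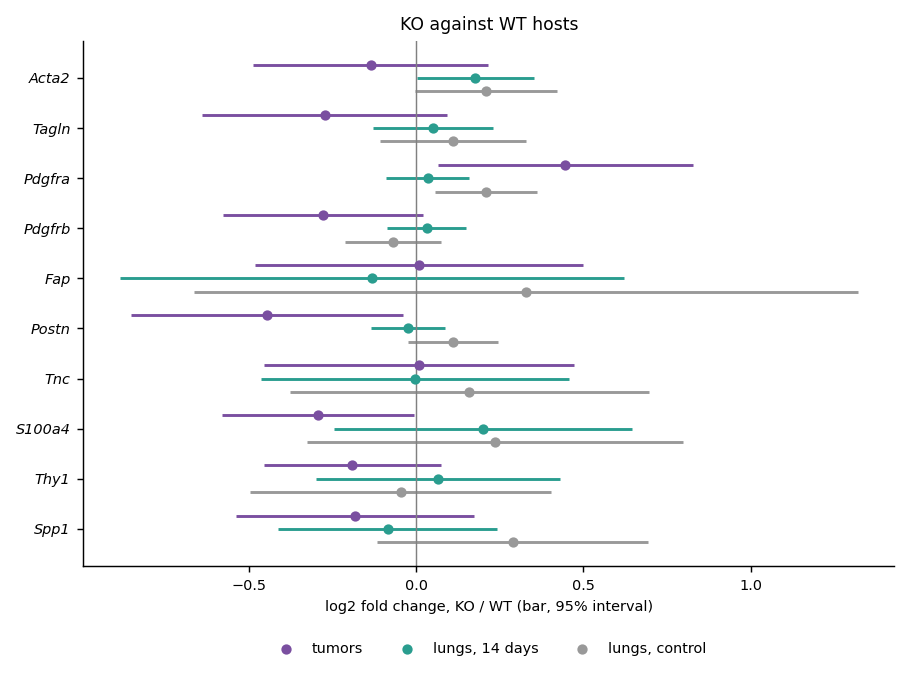
Points are log2 fold changes of KO over WT for tumors (purple), 14-day lungs (green) and control lungs (grey), and bars are 95% intervals from the fits. In tumors *Pdgfra* lies at 0.45 and *Postn* at -0.45, and in 14-day lungs the bars of *Pdgfra*, *Pdgfrb* and *Postn* are short and cover 0.

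Other stromal genes gave a background for these values. None of 12 contractile genes tested, 7 pericyte genes, 17 fibroblast identity and matrix genes, 21 TGF-beta pathway genes, 4 PDGF ligands, 13 receptors for osteopontin, periostin and tenascin-C, 8 S100 relatives, 7 FAP relatives and 7 SRF and MRTF regulators was called in the tumor comparison, with medians of 0.030, -0.029, 0.13, 0.032, 0.13, 0.16, 0.075, 0.042 and 0.035 on the log2 scale. Of 11 inflammatory fibroblast genes tested all 11 had higher fitted levels in KO hosts and 3 rose, the monocyte attractants *Ccl7* (0.89 ± 0.12, FDR = 0.000541) and *Ccl2* (0.78 ± 0.11, FDR = 0.00123) and the surface protein gene *Ly6c1* (0.41 ± 0.095, FDR = 0.0319). Of 5 antigen-presenting fibroblast genes 4 rose, *Saa3* (2.26 ± 0.38, FDR = 0.00318), an acute-phase protein, and the class II genes *H2-Ab1* (1.43 ± 0.23), *H2-Aa* (1.26 ± 0.25) and *Cd74* (1.201 ± 0.21). *Wisp2*, a matricellular gene, rose by 0.50 ± 0.11 (FDR = 0.0283), as 1 of 12 tested. The inflammatory list summed to 414 to 894 CPM in 5 WT tumors and 1642 CPM in WT tumor 6, inside the range of 1080 to 1812 CPM of the KO tumors. Most of that sum is *C3*, with medians of 409 CPM in WT and 1283 CPM in KO tumors, and *C3* was not among the called genes. When 1 tumor at a time was left out, *Ccl7*, *Ccl2*, *Saa3*, *H2-Ab1*, *H2-Aa* and *Cd74* kept their calls in all 12 fits, *Wisp2* in 6 and *Ly6c1* in 5. These genes are made by other cells as well, class II genes above all by macrophages, dendritic cells and B cells.

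A few markers of other cells were called in the same comparison, and most were not. Macrophage markers had a summed 1122 to 2128 CPM in WT tumors and 1609 to 2569 CPM in KO tumors, with *C1qb*, a complement subunit, higher by 0.73 ± 0.17 (FDR = 0.0371) as 1 of 12 genes. T cell markers summed to 13.6 to 56.6 and 37.0 to 64.4 CPM, with *Cd3d* (1.46 ± 0.35, FDR = 0.0391) and *Cd3g* (1.31 ± 0.31, FDR = 0.0389) higher as 2 of 7 tested. Adipocyte genes of the fat pad summed to 142 to 314 CPM in WT tumors and 167 to 748 CPM in KO tumors, and 0 of 7 were called at log2 changes of 0.69 to 1.13. *Msln*, a mesothelial marker, was lower by -0.49 ± 0.12 (FDR = 0.046). Of the 12 fits that left out 1 tumor, *Cd3g* was called in 5, *C1qb* in 3, *Msln* in 3 and *Cd3d* in 2. The mesothelial list of 5 genes summed to 50.8 to 61.2 CPM in WT tumors and 28.3 to 50.3 CPM in KO tumors. That sum is mostly *Msln* itself, with medians of 54.6 and 39.1 CPM in WT and KO tumors. *Wt1* had medians of 1.59 and 2.54 CPM, and 3 genes of the list had medians under 1 CPM in both groups. The part of other cells in the values of *Pdgfra*, *Thy1* and *Spp1* was not tested.

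The spread within groups was wider in tumors than in lungs for some of the 10 genes and not for others. The SD of log2 CPM within groups was 0.39 for *Postn* in tumors and 0.088 in lungs, 0.37 and 0.11 for *Pdgfra*, 0.29 and 0.093 for *Pdgfrb*, and 0.31 and 0.16 for *Acta2*, where the median gene had 0.23 and 0.20. It was 0.45 and 0.43 for *Fap*, 0.44 and 0.42 for *Tnc*, 0.23 and 0.25 for *Thy1* and 0.28 and 0.38 for *S100a4*. WT tumor 1 stood above the mean of the 12 tumors for all 10 genes and was the highest of its group for 7, and WT tumor 4 was the lowest of its group for 5. After each group's mean was removed, the log2 ratio of *Acta2* to *Tagln* had an SD of 0.20 over the 12 tumors and 0.099 over the 20 lungs, 0.44 times what independent genes of the same spread would give in both tissues. Within tumor groups the same measure was 0.42 times for *Pdgfra* to *Postn* and 0.45 times for *Tagln* to *Postn*. In lungs the ratio of *Pdgfra* to *Postn* was at 1.26 times. These pairs share libraries and are a description.

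**Figure D4:**
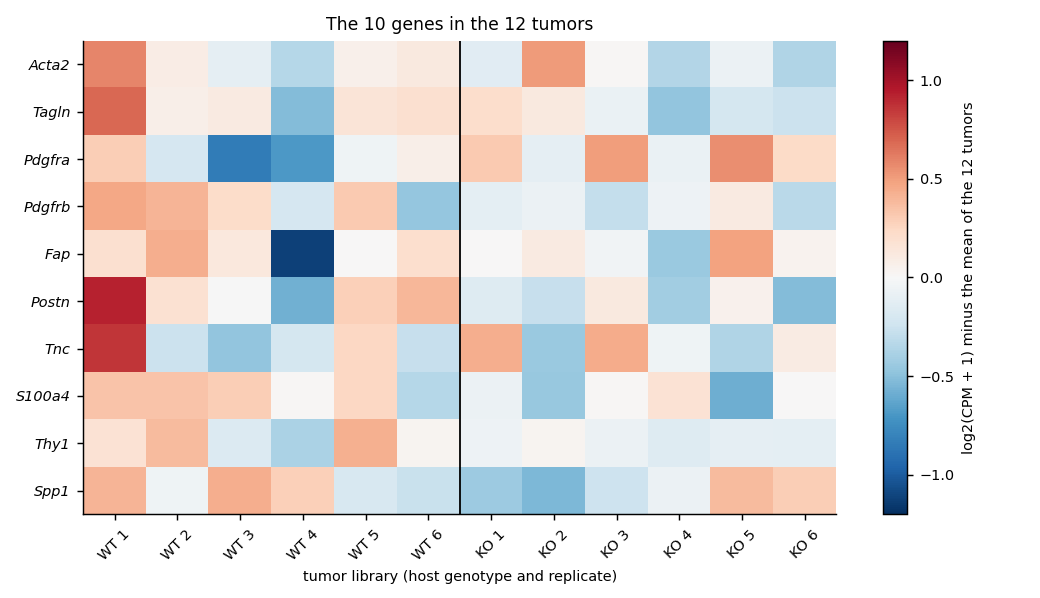
Colors show log2(CPM + 1) of each gene in each of the 12 tumors minus the gene's mean over the 12 tumors, WT hosts left of the line and KO hosts right. WT tumor 1 is above the mean for all 10 genes, and WT tumor 4 is above it for 2.

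Lungs of tumor-bearing mice were compared with control lungs to ask how a distant tumor alters the lung. The comparison was made in each genotype in 1 fit of the 20 lungs and called at an FDR of 0.25. The study's limit for genes in lungs adds a 1.5-fold change to that FDR, which leaves 92 of 373 calls in WT and 42 of 169 in KO mice. None of the 10 genes was called in WT mice, where 2.33% of 16029 genes were (1.18% higher and 1.15% lower), or in KO mice, where 1.05% were (0.78% higher and 0.275% lower). In WT mice 1 of the 10 was under an unadjusted p of 0.05, beside 11.8% of all genes, and DESeq2 called 1, *Spp1*, beside 5.86% of the genes it gave an adjusted p. In KO mice 2 of the 10 were under that p, beside 8.64%, and DESeq2 called 0, beside 2.75%. DESeq2 gave no adjusted p to *Fap* and *Thy1* in any of the 5 lung comparisons, nor to *S100a4* in 3 of them. The median log2 change of the 10 was 0.016 in WT and -0.025 in KO mice, and that of all genes 0.0032 and 0.0039. The WT and KO comparisons share no libraries but 1 fit.

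*Spp1* was at 82.2, 63.5, 87.6 and 85.3 CPM in the 4 WT control lungs and ran from 85.1 through 110 to 134 CPM in the 6 WT lungs at 14 days. Of the 14-day lungs 4 stood above every control, and the other 2 lay within the control range. The log2 change was 0.45 (95% interval 0.076 to 0.82, edgeR FDR = 0.34). In KO mice the controls held 110, 102, 103 and 74.8 CPM and the 14-day lungs ran from 60.9 through 102 to 146 CPM, with a change of 0.075 (-0.29 to 0.44, FDR = 0.934).

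*Tnc* was lower at 14 days in both genotypes by its fitted values. The WT controls held 58.1, 41.5, 31.4 and 34.0 CPM, and the WT lungs at 14 days ran from 25.1 through 27.3 to 46.7 CPM, where 5 of 6 stood below every control (log2 change -0.45, interval -0.94 to 0.049, FDR = 0.477). The KO controls held 53.0, 31.9, 34.6 and 66.0 CPM, and the KO lungs at 14 days ran from 16.8 through 29.9 to 41.3 CPM (-0.61, interval -1.11 to -0.11, FDR = 0.443). The groups overlapped in both genotypes. The WT value was -0.24 without WT control 1 and the KO value -0.39 without KO control 4, the highest control of each genotype.

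*Pdgfra* had 599, 587, 571 and 556 CPM in KO control lungs and 434 through 515 to 544 CPM in KO lungs at 14 days, so that every 14-day lung stood below every control. It was 1 of 10 without overlap, beside 2.16% of all genes (1.22% higher and 0.948% lower at 14 days). The log2 change was -0.18 (-0.32 to -0.044, FDR = 0.397). In WT mice the change was -0.0082 (-0.15 to 0.13, FDR = 0.977), with controls at 494, 477, 528 and 500 CPM. In WT mice none of the 10 genes was free of overlap, beside 2.88% of all genes (1.24% higher and 1.65% lower). The test of the difference between the genotypes' responses gave -0.17 for *Pdgfra* (-0.37 to 0.022, FDR = 0.647) and -0.37 for *Spp1* (-0.89 to 0.15, FDR = 0.715). None of the 10 was called for it by edgeR, beside 0.0499% of all genes, or DESeq2, beside 2.56%, and 0 were at an unadjusted p under 0.05, beside 8.53%.

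The contractile pair had log2 changes of -0.0026 (interval -0.20 to 0.19) and -0.12 (-0.32 to 0.082) for *Acta2* and *Tagln* in WT mice and -0.034 (-0.23 to 0.16) and -0.18 (-0.38 to 0.023) in KO mice. *Postn* had the narrowest interval of the 10, at 0.035 (-0.088 to 0.16) in WT and -0.10 (-0.22 to 0.022) in KO mice. *Pdgfrb* was at -0.12 (-0.25 to 0.015) and -0.016 (-0.15 to 0.12), *S100a4* at 0.30 (-0.21 to 0.82) and 0.27 (-0.24 to 0.77), and *Thy1* at 0.057 (-0.35 to 0.46) and 0.17 (-0.25 to 0.58). *Fap*, with its few counts, had the widest intervals, at 0.62 (-0.25 to 1.498) and 0.16 (-0.72 to 1.04). Single libraries moved several of these values by over 1.5 times, *Tagln* in WT mice to -0.21 without WT lung 3 at 14 days, *Pdgfrb* in WT mice to -0.065 without WT control 2, *Postn* in WT mice to 0.011 without WT control 3 and in KO mice to -0.16 without KO lung 2 at 14 days and -0.063 without KO control 4, *S100a4* to 0.095 without WT lung 6 at 14 days and to 0.12 or 0.54 without KO control 1 or 2, *Fap* in WT mice to 0.27 without WT lung 5 at 14 days, and *Thy1* in KO mice to 0.0015 without KO control 4 and 0.34 without KO control 1.

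**Figure D5:**
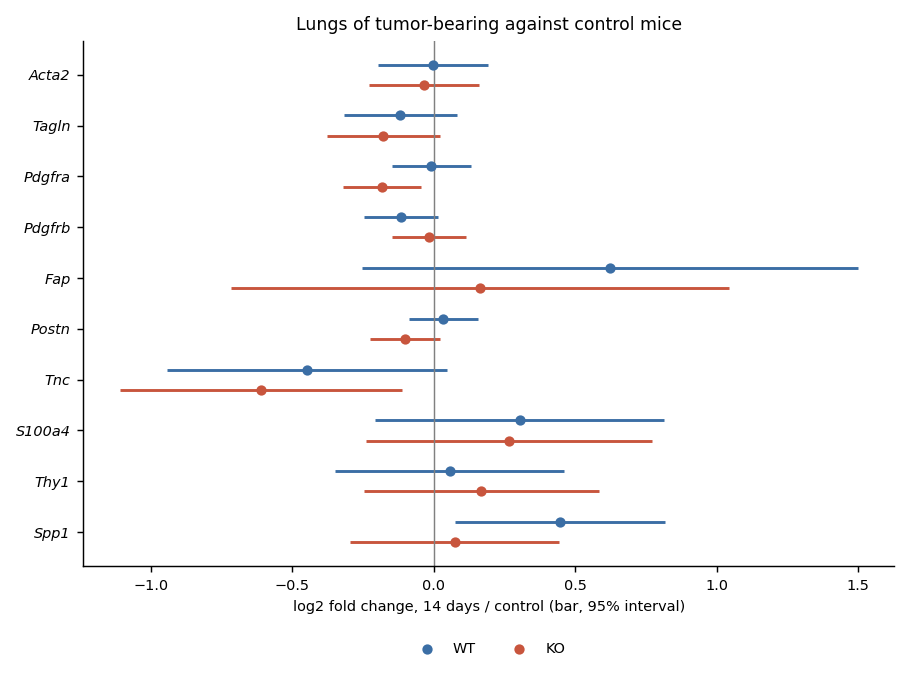
Points are log2 fold changes of 14-day over control lungs in WT (blue) and KO (red) mice, and bars are 95% intervals from 1 fit of the 20 lungs. *Tnc* is lowest (-0.45 and -0.61), and *Spp1* lies at 0.45 in WT and 0.075 in KO mice.

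Some genes of the other lists were called in lungs at 14 days against controls. In WT lungs 3 of 18 fibroblast identity genes fell, of which the 2 with the smallest p were *Col6a1* (-0.35 ± 0.072, FDR = 0.0935) and *Col6a2* (-0.47 ± 0.11, FDR = 0.117), and the third was *Col1a1*. In KO lungs *Col6a1* fell as 1 of 18 (-0.31 ± 0.073, FDR = 0.138). In KO lungs 4 of 22 TGF-beta pathway genes rose, led by the latent TGF-beta binding protein gene *Ltbp4* (0.56 ± 0.12, FDR = 0.106) and the ligand gene *Tgfb1* (0.66 ± 0.17, FDR = 0.173), and 0 of 22 were called in WT lungs. In KO lungs the contractile gene *Actn1*, an actin crosslinker (0.27 ± 0.055, FDR = 0.106), and the class II genes *H2-Ab1* (0.33 ± 0.085, FDR = 0.174) and *Cd74* (0.31 ± 0.090, FDR = 0.239) rose, as 1 of 14 and 2 of 5. The 10 S100 relatives tested included *S100a8* (2.02 ± 0.54, FDR = 0.164) and *S100a9* (2.05 ± 0.56, FDR = 0.169), both neutrophil genes, which rose in WT lungs, and 2 others that fell. The surfactant gene *Sftpb* fell in WT lungs (-0.26 ± 0.078, FDR = 0.209) as 1 of 8 epithelial genes.

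Neutrophil markers rose in both genotypes, 4 of 6 tested in WT lungs and 2 of 6 in KO lungs, among them the chemokine receptor *Cxcr2* (1.34 ± 0.29, FDR = 0.101 in WT and 1.02 ± 0.299, FDR = 0.248 in KO) and in KO lungs the growth factor receptor *Csf3r* (1.42 ± 0.40, FDR = 0.217). The list summed to 43.6 to 82.9 CPM in WT control lungs, 86.9 to 322 CPM at 14 days, and 52.8 to 93.5 and 35.8 to 357 CPM in KO lungs, and their part in the *S100a4* and *Spp1* values was not tested. Of the 20 fits that left out 1 lung, WT calls were kept in 19 for *Col6a1* and *Cxcr2*, 17 for *Col6a2*, 16 for *Col1a1*, *S100a8* and *S100a9* and 13 for *Sftpb*, and KO calls in 18 for *Ltbp4* and *Actn1*, 17 for *Col6a1*, 15 for *Tgfb1* and *H2-Ab1*, 11 for *Csf3r*, 8 for *Cd74* and 5 for *Cxcr2*. Each of these calls was lost without control 2 of its genotype. With GC offsets the WT calls of *Col1a1*, *Col6a1* and *Sftpb* and the KO calls of *H2-Ab1*, *Cd74*, *Csf3r* and *Cxcr2* were lost as well. Of the genes named here, *Col1a1*, *S100a8*, *S100a9* and *Cxcr2* in WT and *Tgfb1*, *Csf3r* and *Cxcr2* in KO lungs passed 1.5-fold, and the others did not.

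KO and WT lungs were compared to ask whether the host genotype alone shifts these genes. None of the 10 was called by edgeR at 14 days, where 0.861% of 16029 genes were (0.393% higher and 0.468% lower in KO), or in controls, where 0.973% were (0.48% higher and 0.493% lower). At an unadjusted p under 0.05 there was 1 of the 10 at 14 days, beside 8.34% of all genes, and 1 in controls, beside 11.6%. DESeq2 called 0 at 14 days, beside 5.09% of the genes it gave an adjusted p, and 1 in controls, *Pdgfra*, beside 4.71%. At 14 days none of the 10 was free of overlap, beside 0.53% of all genes (0.262% higher and 0.268% lower in KO). In controls 2 were, *Acta2* and *Pdgfra*, both higher in KO, beside 7.59% of all genes (3.83% higher and 3.76% lower).

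*Pdgfra* stood at 556 to 599 CPM in KO controls, above the 477 to 528 CPM of the WT controls, a log2 change of 0.21 (95% interval 0.057 to 0.36, FDR = 0.296). *Acta2* stood at 122, 117, 143 and 120 CPM in KO controls and 105, 110, 114 and 104 CPM in WT controls, a log2 change of 0.21 (-0.0029 to 0.42, FDR = 0.436), which was 0.14 without KO control 3. At 14 days *Acta2* was at 0.18 (0.0040 to 0.35, FDR = 0.59) with overlapping groups, and *Pdgfra* at 0.035 (-0.090 to 0.16, FDR = 0.927), from 7.65e-05 without WT lung 4 to 0.075 without KO lung 2. *Tagln* was at 0.11 (-0.11 to 0.33, and 0.065 without KO control 4) in controls and 0.050 (-0.13 to 0.23) at 14 days. The median of the 10 was 0.18 in controls and 0.033 at 14 days, beside -0.0039 and 0.0017 for all genes, and 8 of the 10 were above 0 in controls. Marker sums also separated the control groups, adipocyte genes at 51.5 to 86.2 CPM in KO and 32.9 to 45.9 CPM in WT controls (0 of 6 tested called), mesothelial genes at 154 to 159.9 and 132 to 152 CPM (*Upk1b*, a uroplakin, higher by 0.62 ± 0.17, FDR = 0.224, as 1 of 5), and endothelial genes at 2950 to 3020 and 3043 to 3284 CPM. The part of these cells in the *Pdgfra* and *Acta2* values was not tested. The 14-day and control comparisons share no libraries, but each shares libraries with the comparisons of 14-day with control lungs.

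Of the related genes, *Actn1* was higher in KO lungs at 14 days (0.23 ± 0.049, FDR = 0.0711) as 1 of 14 contractile genes, and *Synpo2* in KO control lungs (0.37 ± 0.097, FDR = 0.22). *Col1a1* was higher in KO lungs at 14 days as 1 of 18 (0.65 ± 0.18, FDR = 0.205), *Wisp2* by 0.34 ± 0.090 (FDR = 0.172) and *Cxcl12*, a stromal chemokine, by 0.30 ± 0.070 (FDR = 0.0962). *Ltbp4* was higher in KO lungs at 14 days (0.36 ± 0.10, FDR = 0.245) and lower in KO controls (-0.43 ± 0.13, FDR = 0.249), where *Ski*, a repressor of SMAD signaling, was also lower (-0.28 ± 0.081, FDR = 0.249) as 2 of 22. *Ltbp4* was called for the genotype by tumor interaction (0.79 ± 0.16, FDR = 0.205). The class II genes *Cd74* (0.39 ± 0.080, FDR = 0.0669) and *H2-Ab1* (0.31 ± 0.076, FDR = 0.129) were higher in KO lungs at 14 days. Of 7 skeletal and cardiac muscle genes tested, 2 were called lower in KO lungs at 14 days. They were *Myh6* (-0.66 ± 0.099, FDR = 0.0031) and *Tnnt2* (-0.57 ± 0.12, FDR = 0.0711). The log2 changes of the 7 ran from -0.66 to 0.56, and 2 were above 0. The list summed to 435 to 558 CPM in KO and 555 to 874 CPM in WT lungs, mostly from *Myh6* (medians 309 and 498 CPM). Of the 20 fits that left out 1 lung, *Actn1*, *Cxcl12*, *Cd74*, *Myh6* and *Tnnt2* kept their calls in all, *H2-Ab1* in 16, *Wisp2* in 14, *Col1a1* and *Upk1b* in 12, *Synpo2* in 11 and *Ski* in 7, and *Ltbp4* in 6 at 14 days, 7 in controls and 9 for the interaction. In a fit of only the 2 groups compared, *Cxcl12*, *Col1a1*, *Wisp2*, *H2-Ab1* and *Ltbp4* lost their calls at 14 days, and with GC offsets *H2-Ab1* did at 14 days, *Synpo2*, *Upk1b*, *Ski* and *Ltbp4* in controls and *Ltbp4* in the interaction. *Col1a1* and *Myh6* at 14 days, *Upk1b* in controls and *Ltbp4* in the interaction passed 1.5-fold, and the other calls named here did not. The part of the muscle tissue in the *Acta2* values was not tested.

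The genes whose profile over the 32 libraries was closest to each of the 10 were found by the root mean square difference of centred log2(CPM + 1), among 13341 genes. For *Acta2* they were *Nfib*, *Strbp* and *Arhgef18* (0.188, 0.189 and 0.199, beside a median of 0.790 over all genes), for *Tagln* *Rhoj*, *Atp9a* and *Colec12* (0.173 to 0.212), for *Pdgfra* *Smpdl3a*, *Tacc1* and *Dmxl2* (0.188 to 0.206) and for *Pdgfrb* *Sorl1*, *Spon1* and *Golm1* (0.135 to 0.178). For *S100a4* they were *Ccnb1*, *Cenpe* and *F13a1* (0.362 to 0.379, median 1.90) and for *Tnc* *Oaf*, *Dtl* and *Aspm* (0.388 to 0.406, median 1.80). *Postn* was nearest to *Cdon*, *Tmem55a* and *Calm2* (0.200 to 0.231), *Thy1* to *Htra1*, *Nhsl1* and *Trps1* (0.251 to 0.256), *Spp1* to the ribosomal protein genes *Rpl14*, *Rps23* and *Rpl15* (0.279 to 0.282) and *Fap* to *Car13*, *Serpinf1* and *Mlkl* (0.337 to 0.371). Each profile includes the step between tumor and lung, which many genes share.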

How the data were processed

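RNA of 32 samples was sequenced from stranded mRNA libraries, and the sources give 4 to 6 independent animals a group. The authors aligned reads to GRCm38 (mm10) with STAR and quantified them with RSEM and deposited expected counts as whole numbers for 29511 genes. The authors also deposited FPKM from RSEM for 29434 symbols.

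Counts were tested with the quasi-likelihood test of edgeR 4.0.16 (R 4.3.3), TMM scaling and filterByExpr, in 1 fit of the 12 tumors, 1 of the 20 lungs and 1 of the 24 14-day samples, with 1 mean per group and Benjamini-Hochberg adjustment over all genes tested. Calls used an FDR of 0.05, and 0.25 within lungs. All 10 genes passed the filter in every fit. CPM used TMM factors over the 32 libraries, SE is the size of the log2 change over the root of F, and 95% intervals use the fit's degrees of freedom. Totals of 4446323 to 8318711 counts limit genes with few counts. The named genes are the 10, up to 4 called genes with the smallest p from each other list in tumors and up to 2 in each lung comparison, the 3 nearest genes to each of the 10, and *Clic4*. *Col1a1* in WT lungs was named outside that rule after its value was seen, and *Sftpc*, *Krt8* and *Epcam* check the tissues. The 10 genes, the lists, the motifs and the tests were chosen with earlier results of these data known.

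Alternatives were DESeq2 1.42.0, RLE size factors, no filter, the replicate number as a blocking factor, fits limited to the groups compared, the study's fold limits in tumors and lungs, an FDR of 0.05 in lungs, each sample left out and FPKM rescaled without *Rn7s1*, *Rn7s2* and *Rn7sk*. GC offsets (loess span 0.5) an FDR of 0.25 in tumors, a 2-fold limit between tumor and lung, and the search for CArG boxes 1 base off were added after seeing the data. Scripts were tested on simulated counts. Figures used matplotlib 3.10.9.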

Additional observations from a re-analysis of the deposited data

Results flagged for a closer look

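In 3 of 60 gene and group combinations, 1 library stood far from the rest of its group by Dixon's test, and chance gives about 1 in 20 such groups. *Tagln* was at 112 CPM in WT lung 3 at 14 days, where the other 5 lungs held 77.3 to 84.6 CPM (gap over range 0.756). *Tnc* was at 46.7 CPM in WT lung 2 at 14 days, where the others held 25.1 to 29.8 CPM (0.724). *Fap* was at 3.89 CPM in WT tumor 4, where the others held 9.68 to 13.5 CPM (0.720). The cause was not tested in any of these.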

How the results depend on the processing

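The 10 genes kept their calls between tumor and lung (10 of 10 in each genotype) under every alternative fit. With a 2-fold limit added 9 of 10 did in each genotype, without *Postn*. Of all 16115 genes 6143 passed that limit in WT hosts and 5982 in KO hosts. The order of the 10 by FPKM did not change when it was rescaled. In tumors an FDR of 0.25 called 1 of the 10, *Pdgfra*, and the share of all genes at that limit is not given here. Under the other alternatives 0 of the 10 were called in tumors. In WT lungs at 14 days against controls, DESeq2 called 1 of the 10, *Spp1* (FDR = 0.231, beside 520 of 8873 genes). A fit of only the compared groups also called 1, *Spp1* (FDR = 0.244, beside 319 of 15579). Leaving out 1 library gave 0 to 1. *Spp1* was called without KO lung 2 at 14 days (FDR = 0.241, beside 555 of 16075 genes). It was also called without WT lung 3 at 14 days (FDR = 0.25, beside 753 of 15952). In KO against WT control lungs, DESeq2 called 1, *Pdgfra* (FDR = 0.2, beside 462 of 9806 genes). A fit of only the compared groups called 2, *Acta2* (FDR = 0.209) and *Pdgfra* (FDR = 0.153), beside 1189 of 15202 genes. Leaving out 1 library gave 0 to 1, *Pdgfra* without KO lung 2 at 14 days (FDR = 0.245, beside 280 of 16075 genes). The replicate number used as a block called 1 gene in KO lungs at 14 days against controls, *Pdgfra* (-0.21, FDR = 0.208), beside 513 of 16029 genes. The block turned *S100a4* in the genotype by tumor interaction to 0.022 and changed no other call of the 10. Of the related genes named, *Wisp2* and *Msln* in tumors and *Ltbp4* between KO and WT lungs (14 days, controls and the interaction), *Ski* in controls and *Sftpb* in WT lungs lost their calls with the block. With no filter, calls were lost for *Cd3d*, *Cd3g* and *Msln* in tumors, *Sftpb* in WT lungs, *Cd74* in KO lungs against controls, and *Synpo2*, *Upk1b*, *Ski* and *Ltbp4* in controls, with DESeq2 for *Upk1b*, with RLE factors for *Ski* and *Ltbp4* in controls, and in fits of only the compared groups also for *Sftpb* in WT lungs and *H2-Ab1*, *Cd74*, *Csf3r* and *Cxcr2* in KO lungs against controls. The labels do not say whether a replicate number marks 1 animal. The correlation of same-numbered samples' deviations was -0.35 to 0.135 for KO with WT tumors, and in no set of groups was it over 0.1 in every pair. All 6 KO tumors matched best with the KO lung of the same number (0.0496 to 0.178), a hint from the data that these may share an animal, and 2 of 6 WT tumors did (-0.0198 to 0.0746). Values near 0 changed sign with GC offsets, *Acta2* (0.00133) and *Postn* (-0.0754) in WT lungs at 14 days against controls, *Tnc* (0.00679) in KO against WT lungs at 14 days, *Pdgfrb* (0.026), *Postn* (-0.014) and *Thy1* (0.066) in KO against WT controls and *Thy1* (-0.00765) in the genotype by tumor interaction. *Tnc* in the genotype by tissue interaction changed sign with DESeq2 (-0.000442), RLE factors (-0.00604), no filter (-0.00527) and GC offsets (-0.000414). Leaving out 1 library at a time changed the sign of further values in the genotype by tissue interaction for *Fap* (-0.22 to 0.54), *Spp1* (-0.22 to 0.0334), *Tnc* (-0.15 to 0.24), in KO lungs at 14 days against controls for *Acta2* (-0.0784 to 0.0334), *Fap* (-0.25 to 0.29), *Pdgfrb* (-0.0327 to 0.0149), *Spp1* (-0.0563 to 0.18), in WT lungs at 14 days against controls for *Acta2* (-0.074 to 0.0302), *Pdgfra* (-0.0431 to 0.0272), *Thy1* (-0.0422 to 0.17), in KO against WT lungs at 14 days for *Fap* (-0.54 to 0.23), *Postn* (-0.0753 to 0.00872), *Spp1* (-0.22 to 0.027), *Tagln* (-0.0135 to 0.13), *Thy1* (-0.0225 to 0.13), *Tnc* (-0.11 to 0.16), in KO against WT control lungs for *S100a4* (-0.0339 to 0.38), *Thy1* (-0.22 to 0.12), *Tnc* (-0.0598 to 0.36), in the genotype by tumor interaction for *Acta2* (-0.0726 to 0.0424), *S100a4* (-0.18 to 0.23), *Tagln* (-0.12 to 0.0311), *Thy1* (-0.0541 to 0.28), *Tnc* (-0.37 to 0.0587) and in KO against WT tumors for *Fap* (-0.15 to 0.11), *Tnc* (-0.0806 to 0.24). The cause of these changes was not tested. Counts of calls over all genes moved by over 1.5 times in tumors with DESeq2 (549 against 347), in WT lungs at 14 days against controls with no filter (143 against 373), GC offsets (119) and the block (582), in KO lungs with DESeq2 (321 against 169), no filter (104), GC offsets (90) and the block (513), in KO against WT lungs at 14 days with DESeq2 (262 against 138) and only the compared groups (41), in controls with DESeq2 (462 against 156), RLE factors (103), no filter (18), the block (98), GC offsets (6) and only the compared groups (1189), in the genotype by tumor interaction with DESeq2 (195 against 8), the block (1) and GC offsets (1), and in the genotype by tissue interaction with DESeq2 (197 against 114). Leaving out 1 library also moved them by over 1.5 times, at the extremes to 203 without WT tumor 5 in tumors, to 43 without WT control 2 and 753 without WT lung 3 at 14 days in WT lungs against controls, to 9 without KO control 2 and 299 without WT lung 5 at 14 days in KO lungs against controls, to 69 and 218 without WT or KO lung 1 at 14 days in KO against WT lungs at 14 days, to 5 without KO control 2 or WT control 3 and 468 without WT lung 5 at 14 days in controls, to 1 without any of 5 lungs and 127 without KO control 1 in the genotype by tumor interaction, and to 46 without WT tumor 5 and 201 without WT tumor 6 in the genotype by tissue interaction, so the shares of all genes called in lungs moved with single libraries. At 4 to 25 counts of *Fap* in a lung, depth limits that gene most.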
